A study of Danio rerio with 4 samples.

Results

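The cells described here are zebrafish keratinocytes that carry RNA of ptgdsb.1 and ptgdsb.2, neighbouring genes for a lipocalin-type prostaglandin D synthase. They are 636 of the 29185 skin cells that passed the study's limits on depth (36239 barcodes were deposited), and were found with 259 cells in unwounded skin, 97 at 2 days post wounding (dpw), 63 at 4 dpw and 217 at 6 dpw. A cell was taken when it had a unique molecular identifier (UMI, the tag that marks 1 captured RNA molecule) of epcam or cdh1, at least 3 of the 5 genes of list B (ptgdsb.1, ptgdsb.2, srd5a2b, cx44.2 and gyg1b), and more genes of list B than of any of 4 other lists of 5 genes. These were list A for basal keratinocytes (tp63, cldn1, fermt1, col17a1b, krtt1c19e), list C for krt96/krt97-positive suprabasal keratinocytes (zgc:162941, ano1, icn2, krt96, krt97), list D for superficial keratinocytes (malb, arid6, elovl7a, ttc22, rnf183) and list E for jac4/krt17-positive keratinocytes (jac4, krt17, krt94, si:zfos-2372e4.1, si:dkeyp-32g11.8). The choice thus rests on measured values of these 25 genes, whose levels in the chosen cells are given as description only.

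The series holds 4 single-cell libraries of adult wild type zebrafish skin, each made from the pooled cells of 3 fish: wounds at 2, 4 and 6 dpw and, as their reference, skin with no wound and no treatment. Per the study's methods the fish were of the TL and EK strains and 6 to 8 months old, and full-thickness wounds were made with a dermatology laser. Wound tissue was taken with a biopsy punch of 4 mm, whereas unwounded skin was scraped off. Sampling and wounding therefore changed together and cannot be told apart. With 1 library per condition nothing measures the spread between fish, so no test between conditions was made and every interval below covers counting error only.

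The zebrafish epidermis is a layered epithelium. Basal keratinocytes sit on the basement membrane through hemidesmosomes, cell junctions built from integrin alpha 6 beta 4, collagen XVII and laminin, intermediate cells lie above them and superficial cells form the outer surface. Prostaglandin D synthase turns prostaglandin H, the product of the cyclooxygenases, into prostaglandin D, a lipid signal, and the same lipocalin family carries retinoids and other small lipids. Epidermis also makes cholesterol through the mevalonate pathway, which runs under the transcription factor Srebf2.

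The chosen cells differed among themselves in how much ptgdsb they held. In list B, ptgdsb.1 had 46938, 43835, 47662 and 41652 CPM (UMIs of a gene per 1000000 summed UMIs of the chosen cells) in the unwounded, 2 dpw, 4 dpw and 6 dpw libraries, and ptgdsb.2 had 12072, 10536, 13041 and 13039.5 CPM. Together they took 5.90, 5.44, 6.07 and 5.47% of all UMIs of these cells, and 44.3, 31.1, 39.7 and 37.4% of all ptgdsb UMIs of the libraries lay in them. The pooled share of this gene pair was close to the same in all 4 libraries. Per cell the pair took a median of 3.28, 5.26, 4.81 and 3.78% of UMIs in the unwounded, 2 dpw, 4 dpw and 6 dpw libraries, with a highest cell of 20.7, 16.3, 16.2 and 19.2%. The other 3 genes of list B were far less abundant: srd5a2b, a steroid 5-alpha-reductase, had 336, 279.9, 209.7 and 224 CPM, cx44.2, a gap junction connexin, had 148, 117, 121 and 121 CPM, and gyg1b, a glycogenin that primes glycogen, had 299, 249, 211 and 271 CPM in the unwounded, 2 dpw, 4 dpw and 6 dpw libraries.

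The rule lies within a continuum. Chosen cells with 3 of the 5 genes numbered 109, 24, 14 and 80 in the unwounded, 2 dpw, 4 dpw and 6 dpw libraries, and those with all 5 numbered 99, 36, 22 and 56. The pair took a median of 1.03, 1.60, 1.45 and 1.62% of UMIs in the cells with 3 genes, just inside the rule, and 0.271, 0.0900, 0.363 and 0.191% in the 592, 120, 46 and 270 cells with 2 genes, just outside it. A further 236, 184, 84 and 198 cells had 3 or more genes of list B but as many or more of another list, and their median was 2.47, 2.35, 2.1 and 3.71%. Of all epithelial cells with at least 1% ptgdsb (625, 335, 218 and 572 cells), 196, 81, 55 and 182 were chosen, 93, 64, 54 and 121 met the rule for list A instead, and 308, 115, 91 and 244 met it for no list.

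Free RNA from burst cells gives every cell a low level of abundant RNAs, so the level was read against cells that should lack it. In cells without epcam and cdh1 that carried at least 2 T cell markers (750, 583, 580 and 642 cells in the unwounded, 2 dpw, 4 dpw and 6 dpw libraries), the pair took 0.0546, 0.0167, 0.00694 and 0.0266% of UMIs, and 99% of these cells were at or below 0.778, 0.250, 0.172 and 0.334%. The chosen cells had a median depth of 9404, 11927, 10949 and 7921 UMIs, against 2590, 2691, 2973.5 and 2198.5 UMIs in the T marker cells. Of the chosen cells, 514 had at least 1% ptgdsb, above the 99th percentile of the T marker cells in each library: 196 in unwounded skin, 81 at 2 dpw, 55 at 4 dpw and 182 at 6 dpw. The other 63, 16, 8 and 35 were under 1%. This line was drawn after the data had been seen, and it is a range and not a type, since 54, 10, 10 and 37 cells lay between 0.5 and 2%. Values of the cells with at least 1% are given beside those of all chosen cells where a result rests on the difference.

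The cells under 1% were a mixed lot. They held a mean of 0.603, 1.38, 2.00 and 0.771 genes of list A in the unwounded, 2 dpw, 4 dpw and 6 dpw libraries, against 2.70, 2.86, 2.71 and 2.51 in the cells with at least 1%. Markers of fibroblasts (all 9 of the list were found) summed to 2737, 15479.6, 71797 and 6489.7 CPM in the cells under 1%, and to 869, 269, 3707 and 7466 CPM in the cells with at least 1%. Pigment cell markers summed to 271, 11.5, 0 and 141 CPM in the cells under 1%, against 0.973, 0, 0 and 0.613 CPM in the others, with pmela and dct at 0 in unwounded skin. Genes such as gch2, a pteridine synthesis enzyme of pigment cells, and defbl1, a beta-defensin, came almost wholly from cells under 1%: in unwounded skin 779 of 790 gch2 UMIs and all 195 defbl1 UMIs.

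**Figure D1:**
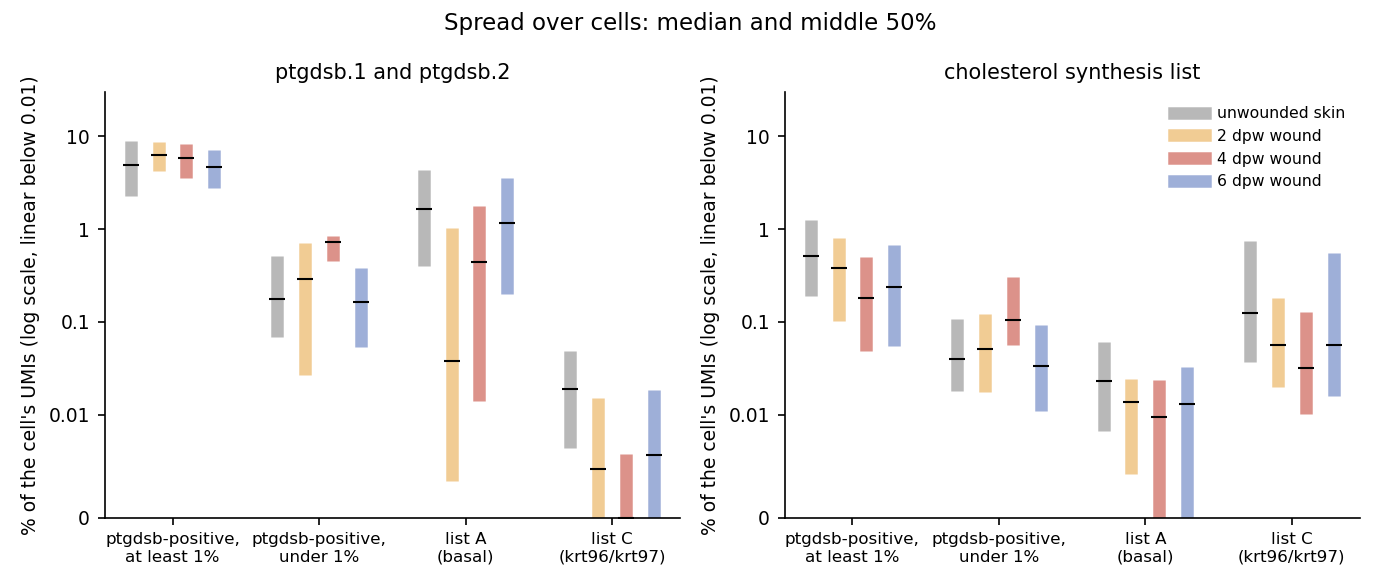
Share of each cell's UMIs from the ptgdsb pair (left) and from 31 cholesterol synthesis genes (right), in % on a log axis that is linear below 0.01, in ptgdsb-positive cells with at least 1% or under 1% ptgdsb and in list A and list C cells, with bars for the middle 50% of cells and lines for the median, by library. Cells with at least 1% ptgdsb lie highest in both panels, with medians of 0.513, 0.385, 0.180 and 0.235% for the cholesterol list in the unwounded, 2 dpw, 4 dpw and 6 dpw libraries.

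Wound epidermis held a smaller share of ptgdsb-positive cells than unwounded epidermis. Of the 3957, 3726, 2916 and 4644 cells with epcam or cdh1 in the unwounded, 2 dpw, 4 dpw and 6 dpw libraries, they were 6.55% (95% Clopper-Pearson interval 5.79 to 7.36), 2.60% (2.12 to 3.17), 2.16% (1.66 to 2.76) and 4.67% (4.08 to 5.32). The share was 0.398 times that of unwounded skin at 2 dpw (0.312 to 0.504), 0.330 times at 4 dpw (0.247 to 0.436) and 0.714 times at 6 dpw (0.593 to 0.858). The share was thus lowest at 4 dpw and higher again at 6 dpw. Among the chosen cells with at least 1% ptgdsb the ratios were 0.439 (0.334 to 0.571), 0.381 (0.277 to 0.516) and 0.791 (0.643 to 0.973). Chosen or not, 625, 335, 218 and 572 of these epithelial cells had at least 1% ptgdsb in the unwounded, 2 dpw, 4 dpw and 6 dpw libraries. The ratios above do not describe this larger set.

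Depth and the make-up of the epidermis moved alongside. Of the 2914, 2809, 2199 and 3534 epithelial cells with at least 2000 UMIs, each thinned to that number, 5.18, 2.67, 1.96 and 3.93% met the rule in the unwounded, 2 dpw, 4 dpw and 6 dpw libraries (151, 75, 43 and 139 cells), with the shallower cells left out. Of the other groups chosen by the same rule, jac4/krt17-positive cells (list E) numbered 33, 845, 635 and 256, list A cells 146, 252, 145 and 223 and list C cells 1318, 491, 468 and 1234. Among cells that met the rule for any of the 5 lists the share of ptgdsb-positive cells was 14.4, 5.72, 4.73 and 10.7%, lowest again at 4 dpw. Genes of other groups also enter the rule. Of those weighed against list B, jac4 had 0.396, 13.2, 93.3 and 27.7 CPM and krt94 had 76.8, 527, 105 and 76.1 CPM in the chosen cells in the unwounded, 2 dpw, 4 dpw and 6 dpw libraries. Levels in chosen cells do not show how many cells such genes kept out. Over all 4 other lists, 236, 184, 84 and 198 cells with 3 or more genes of list B were kept out. They had as many or more genes of another list. The chosen cells numbered 259, 97, 63 and 217, so at 2 and 4 dpw those kept out were more than those chosen. The part of any of these in the lower share was not tested.

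**Figure D2:**
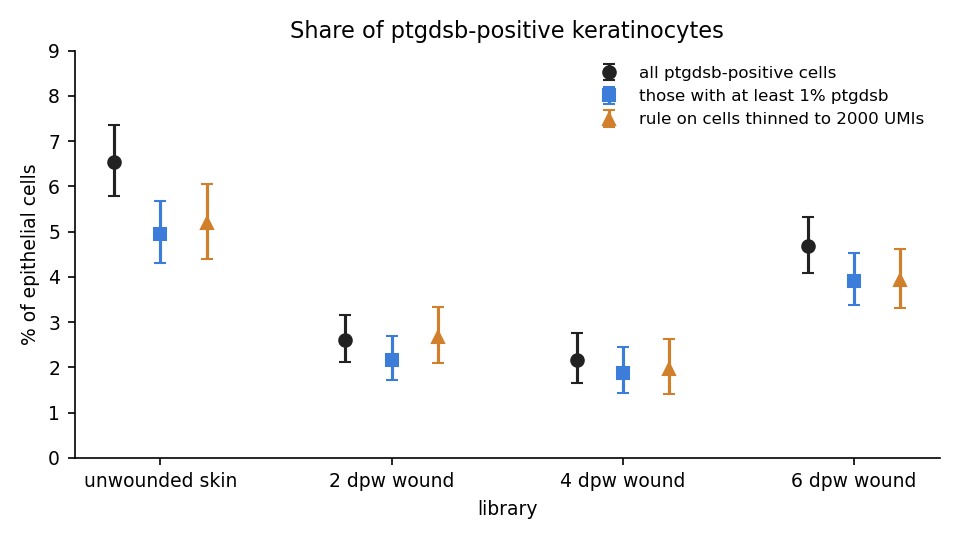
Ptgdsb-positive keratinocytes in % of cells with epcam or cdh1 in the 4 libraries, for all 636 cells, for those with at least 1% ptgdsb and for the rule applied to cells thinned to 2000 UMIs, with points for the share and bars for the 95% Clopper-Pearson interval. In each set the share is lowest at 4 dpw, at 2.16, 1.89 and 1.96%, and highest in unwounded skin.

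Ptgdsb-positive cells carried some of the basement membrane adhesion genes of basal keratinocytes, among them both chains of the hemidesmosome integrin. The label names an intermediate layer, but position in the epidermis was not measured, so the cells are called here by their gene. In cells with at least 1% ptgdsb, itgb4, the beta 4 integrin of hemidesmosomes, had 4685, 4359.5, 3473 and 3772 CPM in the unwounded, 2 dpw, 4 dpw and 6 dpw libraries, against 4329, 3529, 3463 and 3226 CPM in list A cells and 100.2, 149, 50 and 65.0 CPM in list C cells. Its partner itga6b had 1996, 1941, 1564 and 1409.8 CPM, against 1938, 2059, 1913 and 1537 CPM in list A cells and 18.5 to 71.2 CPM in list C cells. For both genes the ptgdsb-positive cells lay at the level of the basal list and far above the krt96/krt97-positive cells. Of the 146, 252, 145 and 223 list A cells, however, 93, 64, 54 and 121 also had at least 1% ptgdsb. The compared groups thus overlap in that trait. Other adhesion genes were lower: col7a1, the collagen of anchoring fibrils, had 20.9, 33.4, 10.8 and 23.9 CPM, against 130.1, 228, 263 and 115 CPM in list A cells, and fras1, a basement membrane protein, had 2.92, 2.09, 7.75 and 5.52 CPM, against 24.0, 11.9, 22.3 and 50.1 CPM. These were the 2 of 7 basal adhesion genes tested that were at least 2-fold lower than in list A cells in all 4 libraries, and 0 of 7 were at least 2-fold higher. Over all ptgdsb-positive cells, 1.63% of all 5164 genes were lower in this way and 2.44% higher. In cells with at least 1% ptgdsb these shares were 2.44 and 2.15%. The claudin cldni was near the list A level, with 7729, 6715, 5139 and 6857 CPM in ptgdsb-positive cells, 6714, 4118, 4167 and 4884 CPM in list A cells and 143 to 309 CPM in list C cells.

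Even genes that the rule set against them were found. The basal transcription factor tp63 had 438, 299, 471 and 357 CPM in all ptgdsb-positive cells in the unwounded, 2 dpw, 4 dpw and 6 dpw libraries, against 486, 437, 451 and 340.4 CPM in list A cells, and was detected in 64.5, 70, 79.4 and 60.8% of ptgdsb-positive cells. Among the 194, 85, 54 and 170 ptgdsb-positive cells with at least 2000 UMIs, each thinned to that number with 65, 12, 9 and 47 shallower cells left out, it was found in 43.8, 45.9, 64.8 and 39%, and in 0.787, 0.761, 0.969 and 0.548% of T marker cells of that depth. The hemidesmosome collagen col17a1b had 848, 1060.5, 896 and 1018 CPM, and cldn1, a claudin of tight junctions, had 366, 341, 362 and 318 CPM. Of list C, krt97 had 583, 844, 887 and 549.8 CPM in ptgdsb-positive cells. It was found in 66.0, 78.4, 82.5 and 66.4% of them, against 11.7, 6.86, 5.52 and 7.32% of the shallower T marker cells. Thinned to 2000 UMIs, the shares of ptgdsb-positive cells were 43.8, 63.5, 61.1 and 42.9%. The list C gene icn2 was nearer the T marker level. At that depth it was found in 33.5, 15.3, 35.2 and 23.5% of ptgdsb-positive cells and 97.4, 96.4, 98.1 and 98.5% of list C cells. In T marker cells its share was 18.5, 8.88 and 13.3% in the unwounded, 2 dpw and 4 dpw libraries.

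Of the keratins, krt15 differed from list A cells in each library. In cells with at least 1% ptgdsb, krt15 had 221, 208, 301 and 219 CPM in the unwounded, 2 dpw, 4 dpw and 6 dpw libraries, against 5809, 7265, 5703 and 4624 CPM in list A cells and 179, 211, 337 and 122 CPM in list C cells. The list A keratin krtt1c19e, which the rule uses, had 0.396, 0, 0 and 3.19 CPM in ptgdsb-positive cells and 308, 132, 233 and 159 CPM in list A cells. The keratin krt15 was thus near the list C level, whereas a low level of krtt1c19e is favoured by the rule itself. Of 9 keratin genes outside the rule tested against list A cells, only krt15 was at least 2-fold lower in all 4 libraries over all ptgdsb-positive cells, with a median ratio of 0.783 over the list, and 2 were, krt15 and krt18a.1, among cells with at least 1% ptgdsb. Of the claudins that mark list C cells, cldnb had 763, 394, 504 and 508 CPM in cells with at least 1% ptgdsb, against 409, 161, 82.8 and 315 CPM in list A cells and 5709, 3730.2, 3573 and 4226 CPM in list C cells, and cldna had 95.4, 42.8, 225 and 112 CPM, 56.7, 39.6, 27.4 and 107 CPM and 1553, 1427, 1372 and 1561 CPM in these 3 groups. Both claudins were lower in ptgdsb-positive cells than in list C cells in each library.

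**Figure D3:**
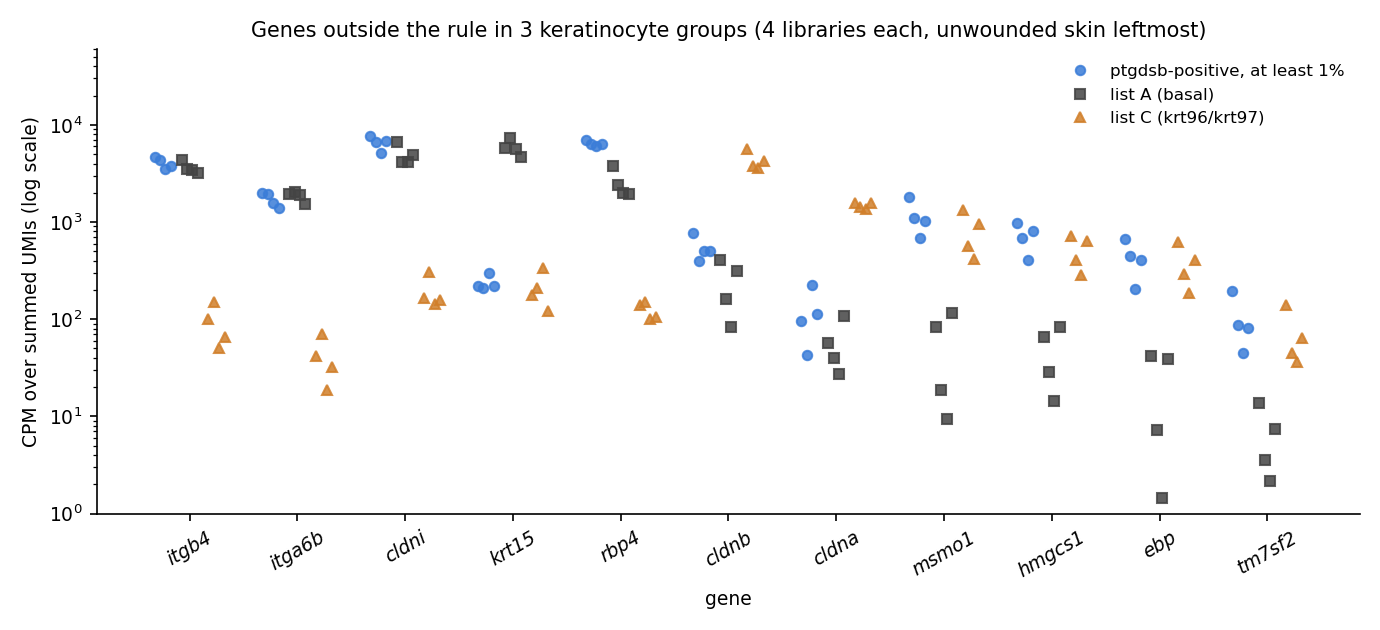
CPM over summed UMIs (log axis) of 11 genes outside the rule in ptgdsb-positive cells with at least 1% ptgdsb, in list A cells and in list C cells, with 1 point per library in the order unwounded skin, 2, 4 and 6 dpw from the left. The integrin genes itgb4 and itga6b lie near the list A level, whereas cholesterol synthesis genes and krt15 lie near the list C level.

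Set against list A cells, the ptgdsb-positive cells carried far more RNA of cholesterol synthesis. The 31 genes of the pathway list in the files (of 32) summed to 7026, 4387, 3098 and 4324 CPM in ptgdsb-positive cells in the unwounded, 2 dpw, 4 dpw and 6 dpw libraries, 623, 237, 181 and 607 CPM in list A cells, 6766, 3182, 2369 and 4469 CPM in list C cells and 414, 282, 259 and 242 CPM in T marker cells. Genes were compared with at least 100 UMIs in the ptgdsb-positive or in the list A cells, so a high level in 1 group was enough. Of the 23 such genes of the list, 22 were at least 2-fold higher in all 4 libraries, with a median ratio of 13.3 (14.1 for cells with at least 1% ptgdsb). Over all genes tested against list A cells, 2.44% were at least 2-fold higher in all 4 libraries and 1.63% at least 2-fold lower, 126 and 84 of 5164. Against the summed list C cells the cholesterol genes hardly differed: 0 of 28 were at least 2-fold higher or lower in all 4 libraries, with a median ratio of 1.27. There 5.25% of all 9334 genes were at least 2-fold higher and 5.32% at least 2-fold lower, 490 and 497 genes.

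The difference ran through the pathway. In cells with at least 1% ptgdsb, hmgcs1, the synthase at its entry, had 972, 679, 409 and 801 CPM in the unwounded, 2 dpw, 4 dpw and 6 dpw libraries, against 66.0, 28.5, 14.4 and 83.9 CPM in list A cells. The sterol demethylase msmo1 had 1806, 1092, 688 and 1020.4 CPM, against 82.6, 18.7, 9.36 and 116 CPM in list A cells, and the sterol isomerase ebp had 675, 452, 206 and 410.3 CPM, against 41.3, 7.32, 1.44 and 39.1 CPM. The sterol reductase tm7sf2 had 194, 86.6, 44.9 and 80.9 CPM, against 13.6, 3.52, 2.16 and 7.47 CPM in list A cells. In each of the 4 genes the lowest library of the ptgdsb-positive cells was above the highest of the list A cells.

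The high level was found in most cells with at least 1% ptgdsb. Per cell the cholesterol list took a median of 0.513, 0.385, 0.180 and 0.235% of UMIs in cells with at least 1% ptgdsb in the unwounded, 2 dpw, 4 dpw and 6 dpw libraries, 0.0401, 0.0514, 0.106 and 0.0331% in ptgdsb-positive cells under 1%, 0.0232, 0.0136, 0.00978 and 0.0131% in list A cells and 0.123, 0.0560, 0.0320 and 0.0563% in list C cells. In unwounded skin the median was 0.542% in the 13 cells with at least 1% ptgdsb and no list C gene, and 0.504% in the 133 cells with 2 or more. In the wounds these medians were 0.296% in 6 cells and 0.422% in 60 cells at 2 dpw, 0.791% in 2 cells and 0.168% in 42 cells at 4 dpw, and 0.603% in 22 cells and 0.175% in 93 cells at 6 dpw. Between these 2 classes, more list C genes went with a higher median at 2 dpw only. Cells with 1 list C gene (50, 15, 11 and 67 cells in the unwounded, 2 dpw, 4 dpw and 6 dpw libraries) had medians of 0.561, 0.385, 0.122 and 0.353%, at 4 dpw the lowest class. The classes also differed in depth, in unwounded skin with a median of 1745 UMIs for no list C gene and 14241 UMIs for 2 or more. Although the sums of list C cells came near those of the ptgdsb-positive cells, the median list C cell held less of the pathway in each library.

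Summed over cells, cholesterol synthesis RNA was lower in wounds. Added over the list it was 0.624 times the level of unwounded skin at 2 dpw (0.605 to 0.644), 0.441 times at 4 dpw (0.421 to 0.461) and 0.615 times at 6 dpw (0.599 to 0.632). The median ptgdsb-positive cell held 0.309, 0.295, 0.156 and 0.187% of its UMIs in these genes in the unwounded, 2 dpw, 4 dpw and 6 dpw libraries. Over all ptgdsb-positive cells the median at 2 dpw was thus close to that of unwounded skin. Among cells with at least 1% ptgdsb it was lower at 2 dpw, with medians of 0.513, 0.385, 0.180 and 0.235%. Of the genes with at least 100 UMIs in the ptgdsb-positive cells of both libraries together, 3 of 19 were at least 2-fold lower at 2 dpw, 12 of 18 at 4 dpw and 4 of 22 at 6 dpw, and none was 2-fold higher. The median ratios were 0.611, 0.463 and 0.651, where the median of all genes tested was 0.969, 0.918 and 0.949. Of all genes tested in ptgdsb-positive cells, 4.04% were at least 2-fold lower at 2 dpw (108 of 2671), 5.31% at 4 dpw (128 of 2409) and 3.56% at 6 dpw (109 of 3059).

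Single genes of the pathway were lower at 4 dpw, and some were partly back at 6 dpw. The most abundant, msmo1, had 1582, 935, 653 and 946 CPM in all ptgdsb-positive cells in the unwounded, 2 dpw, 4 dpw and 6 dpw libraries, a ratio of 0.591 (0.552 to 0.633) at 2 dpw, 0.413 (0.374 to 0.455) at 4 dpw and 0.598 (0.565 to 0.633) at 6 dpw. The isomerase ebp had 618, 398, 211 and 384 CPM, with ratios of 0.644, 0.342 and 0.621 at 2, 4 and 6 dpw. The reductase hmgcra, which sets the pace of the pathway, had 354, 191, 154 and 156 CPM, and srebf2, the factor that turns the pathway on, had 231, 125, 116 and 146 CPM. Both were lower in all 3 wound libraries, with ratios of 0.539, 0.434 and 0.440 for hmgcra and 0.540, 0.504 and 0.635 for srebf2 at 2, 4 and 6 dpw. The level of hmgcra was nearly the same at 4 and 6 dpw. Among the cells thinned to 2000 UMIs, msmo1 was found in 56.7, 51.8, 48.1 and 45.3% of ptgdsb-positive cells of that depth and ebp in 39.2, 32.9, 25.9 and 27.1%, so that the share with msmo1 was lowest at 6 dpw.

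Most of the other keratinocyte groups were also lower at 2 and 4 dpw. In list C cells the summed level of the cholesterol list was 0.470, 0.350 and 0.660 times that of unwounded skin at 2, 4 and 6 dpw, and in list A cells 0.380, 0.291 and 0.976 times. In list D cells it was 0.153, 0.0712 and 0.690 times, and in list E cells 1.25, 0.814 and 1.39 times. List D held only 39, 10, 22 and 90 cells in the unwounded, 2 dpw, 4 dpw and 6 dpw libraries, and the unwounded reference of list E held 33 cells. List A, C and D cells were thus lower at 2 and 4 dpw, whereas list E cells were not lower at 2 dpw. T marker cells, which carry little of it, had 0.681, 0.626 and 0.583 times. In cells with at least 1% ptgdsb it was 0.639, 0.410 and 0.595 times.

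**Figure D4:**
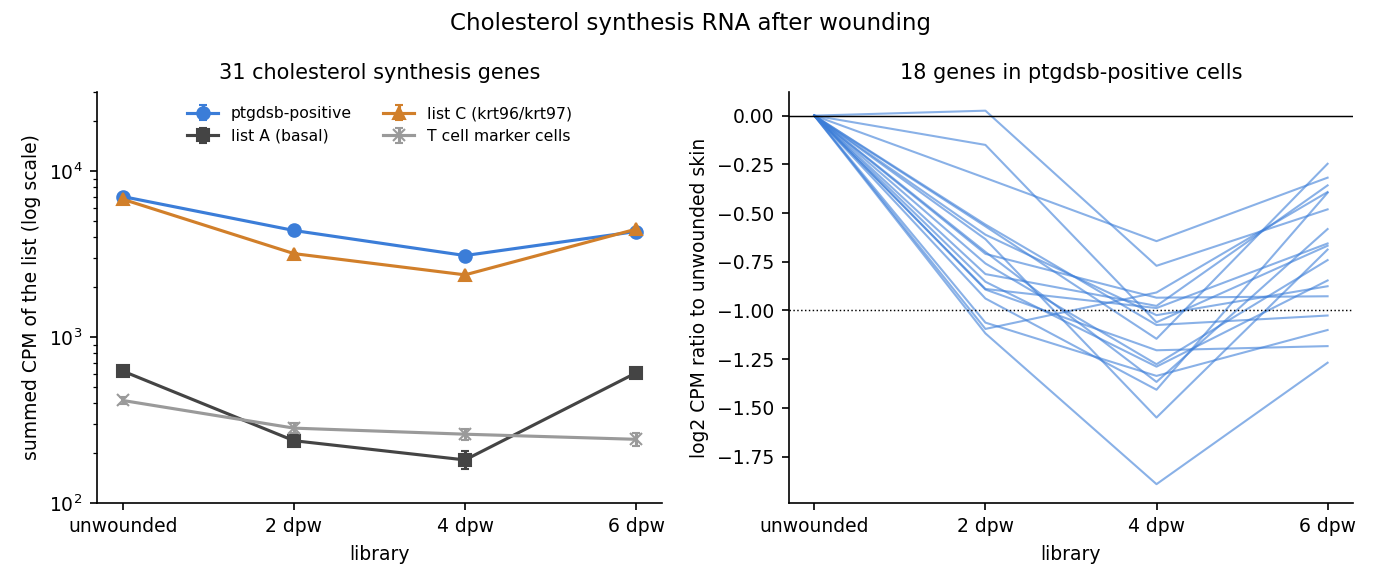
Left, summed CPM (log axis) of 31 cholesterol synthesis genes by library in ptgdsb-positive cells, list A cells, list C cells and T marker cells, with exact 95% Poisson bars. Right, log2 CPM ratio to unwounded skin of the 18 genes tested at all 3 times in ptgdsb-positive cells, 1 line per gene with the dotted line at 2-fold lower: all 18 lie below 0 at 4 and 6 dpw.

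Several genes of sterol and bile acid metabolism were lower in wounds as well. The most widely known of them is cyp7a1, the rate-limiting enzyme of bile acid synthesis from cholesterol. It had 301, 105, 18.7 and 65.5 CPM in ptgdsb-positive cells in the unwounded, 2 dpw, 4 dpw and 6 dpw libraries, with ratios of 0.349 (0.286 to 0.424) at 2 dpw, 0.0621 (0.0329 to 0.107) at 4 dpw and 0.218 (0.178 to 0.264) at 6 dpw. Among the same cells thinned to 2000 UMIs it was found in 28.4, 20, 3.70 and 10% of ptgdsb-positive cells, and in 0.394, 0, 0.242 and 0% of T marker cells of that depth. List A cells had 47.5, 2.17, 2.88 and 11 CPM and list C cells 70, 28, 11.5 and 7.53 CPM, so that in unwounded skin the ptgdsb-positive cells carried the most of the 3 groups.

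Other genes of this kind moved with it in part. The P450 gene cyp8b2, of the sterol 12-alpha-hydroxylase family, had 193, 24.7, 77.5 and 25 CPM in the unwounded, 2 dpw, 4 dpw and 6 dpw libraries, with ratios of 0.128, 0.402 and 0.130 at 2, 4 and 6 dpw. The bile acid transporter subunit slc51a had 204, 121, 86.2 and 70 CPM, and hsd3b7, a steroid dehydrogenase of bile acid synthesis, had 567, 317, 404 and 252 CPM. All 3 had lower CPM in each wound library, hsd3b7 at least 2-fold only at 6 dpw (0.445) and slc51a at 4 and 6 dpw (0.423 and 0.345). Thinned to 2000 UMIs, cyp8b2 was found in 22.7, 7.06, 20.4 and 6.47% of ptgdsb-positive cells and slc51a in 23.2, 21.2, 16.7 and 13.5%. At that depth cyp8b2 at 4 dpw and slc51a at 2 dpw were thus close to unwounded skin. Of list C cells at that depth, 34.2, 12.9, 18.5 and 14.8% had cyp8b2 and 24.5, 12.3, 15.7 and 16.7% had slc51a. Both shares of list C cells were lower in each wound library. The steroid 5-alpha-reductase srd5a2a, a relative of the rule gene srd5a2b, had 303, 177, 218 and 139 CPM and was 0.458 times its unwounded level at 6 dpw. Of the 9 to 11 genes of the steroid list tested, 1, 1 and 3 were at least 2-fold lower at 2, 4 and 6 dpw and none was 2-fold higher. Over all genes tested, 4.04, 5.31 and 3.56% were lower and 3.22, 2.62 and 3.96% higher.

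Retinoid genes divided. Ptgdsb-positive cells were rich in rbp4, the carrier of retinol, with 5904, 5835, 5819 and 5637 CPM in the unwounded, 2 dpw, 4 dpw and 6 dpw libraries, against 3812, 2391, 1966 and 1934 CPM in list A cells and 99.4 to 152 CPM in list C cells. Its level hardly changed after wounding, with ratios of 0.988, 0.986 and 0.955 at 2, 4 and 6 dpw. In contrast cyp26c1, which breaks down retinoic acid, had 243, 87.4, 63.2 and 121 CPM, with ratios of 0.359 (0.288 to 0.445), 0.260 (0.187 to 0.353) and 0.497 (0.425 to 0.579) at 2, 4 and 6 dpw. List A cells showed the same direction for cyp26c1, with 163, 50.7, 46.1 and 88.3 CPM. Its relative cyp26a1 went the other way, with 58.6, 112, 97.7 and 121 CPM in the unwounded, 2 dpw, 4 dpw and 6 dpw libraries and a ratio of 2.06 (1.67 to 2.56) at 6 dpw, 1.88 in cells with at least 1% ptgdsb, and 0.921 as a ratio of mean CPM per cell. Of the 7 retinoid genes tested at each time 1 was at least 2-fold lower, and 1 was 2-fold higher at 6 dpw only. Over all genes tested, 4.04, 5.31 and 3.56% were lower at 2, 4 and 6 dpw and 3.96% higher at 6 dpw.

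The cyclooxygenases that feed prostaglandin D synthase were close to their unwounded level. The cyclooxygenase gene ptgs2a had 470.1, 525, 385 and 605 CPM and ptgs2b had 364, 270.2, 248 and 293 CPM in the unwounded, 2 dpw, 4 dpw and 6 dpw libraries, neither 2-fold from unwounded skin at any time. Of the 5, 5 and 6 genes of the prostaglandin list tested at 2, 4 and 6 dpw, only ptges, a prostaglandin E synthase, passed 2-fold, with 38.3 CPM at 6 dpw and 15.8 CPM in unwounded skin. Within the ptgdsb pair, whose reads can be confused since the genes are close copies, the ratio of ptgdsb.2 to ptgdsb.1 UMIs was 0.257 (0.254 to 0.260), 0.240 (0.236 to 0.245), 0.274 (0.267 to 0.280) and 0.313 (0.309 to 0.318) in ptgdsb-positive cells in the unwounded, 2 dpw, 4 dpw and 6 dpw libraries. In list A cells it was lower in every library, at 0.163, 0.113, 0.113 and 0.180. Both genes are in list B, so the rule itself bears on this ratio in both groups, and the difference was not tested.

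Some regulators were lower in wounds. The zinc finger repressor zbtb16a had 173, 53.9, 151 and 33.0 CPM in the unwounded, 2 dpw, 4 dpw and 6 dpw libraries, lower at 2 and 6 dpw (ratios 0.312 and 0.191) but near its unwounded level at 4 dpw, at 0.874 (0.699 to 1.08), and zbtb16b had 53, 14.1, 18.7 and 16.0 CPM. In cells thinned to 2000 UMIs, zbtb16a was found in 27.9, 10.8, 17.3 and 13.6% of list A cells and 24.3, 10.3, 11.2 and 11.6% of list C cells. The shares of ptgdsb-positive cells were 23.7, 8.24, 25.9 and 7.65%. List A and list C cells were thus lower in each wound library, whereas ptgdsb-positive cells were lower at 2 and 6 dpw only. The SOX factor sox19a had 78.3, 26.5, 18.7 and 32.5 CPM, with ratios of 0.338, 0.238 and 0.414 at 2, 4 and 6 dpw. It was found in few ptgdsb-positive cells thinned to 2000 UMIs, 9.28, 3.53, 0 and 7.65% of them. The gene id1, a target of BMP signals that blocks helix-loop-helix factors, had 779, 418, 280.0 and 473 CPM, and klf5l, a Krüppel-like factor, had 101, 40.6, 54.6 and 40 CPM. All of these had lower CPM in each wound library, though the interval of zbtb16a at 4 dpw held 1 and its thinned share was not lower there. Of the 35, 34 and 38 regulators tested, 3, 4 and 2 were at least 2-fold lower and 3, 1 and 6 at least 2-fold higher at 2, 4 and 6 dpw, where 4.04, 5.31 and 3.56% of all genes were lower and 3.22, 2.62 and 3.96% higher.

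Claudins, adhesion and signal genes added to the lower side. The tight junction claudin cldnb had 1041, 397, 485 and 599 CPM in all ptgdsb-positive cells in the unwounded, 2 dpw, 4 dpw and 6 dpw libraries, and cldn7b had 492, 278, 202 and 284 CPM. Of 11 tight junction genes tested, 4, 3 and 0 were at least 2-fold lower at 2, 4 and 6 dpw in all ptgdsb-positive cells and 0 were at least 2-fold higher. Of all genes, 4.04, 5.31 and 3.56% were lower and 3.22, 2.62 and 3.96% higher. Among cells with at least 1% ptgdsb the tight junction counts were 3, 1 and 0 lower and 0, 2 and 0 higher. The higher genes at 4 dpw were the claudins cldna (ratio 2.36) and cldnh (2.97). Of all genes in these cells, 3.36, 5.65 and 3.44% were lower and 3.09, 3.04 and 4.87% higher. For cldnb the ratios were 0.516 and 0.660 at 2 and 4 dpw in cells with at least 1% ptgdsb, against 0.382 and 0.466 in all. The hyaluronan receptor cd44a had 1243, 642, 653 and 724 CPM, and the chemokine ccl25b had 577, 298, 217 and 386 CPM. The gene csf1b, for a growth factor of macrophages and pigment cells, had 93.4, 48.6, 28.7 and 85.2 CPM, lowest at 4 dpw with a ratio of 0.308 (0.184 to 0.486).

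Hemidesmosome RNA was within 2-fold of unwounded levels, and so was keratin RNA over all ptgdsb-positive cells. None of the 4, 4 and 5 genes of the basal adhesion list tested was 2-fold higher or lower at 2, 4 or 6 dpw, with median ratios of 1.0, 0.985 and 1.16. In all ptgdsb-positive cells itgb4 had 3939, 3884, 3302 and 3416 CPM in the unwounded, 2 dpw, 4 dpw and 6 dpw libraries, and its ratios to the unwounded level were 0.986 (0.951 to 1.02), 0.838 (0.801 to 0.877) and 0.867 (0.840 to 0.895) at 2, 4 and 6 dpw. None of the 7 keratin genes outside the rule passed 2-fold in all ptgdsb-positive cells at any time, and neither did any of the 13 to 15 glycolysis genes. In cells with at least 1% ptgdsb, 1, 2 and 1 of the 7 keratin genes were at least 2-fold higher at 2, 4 and 6 dpw. Of all genes in these cells, 3.09, 3.04 and 4.87% were. The median ratios of the keratin genes were 1.21, 1.34 and 0.989. The higher ones were krt18b at each time (ratios 2.07, 2.16 and 3.51) and krt18a.1 at 4 dpw (2.49). Cell cycle genes summed to 146, 120.1, 322 and 234 CPM in ptgdsb-positive cells, against 320.0, 341, 394 and 214 CPM in list A cells, and to 119, 120.1, 333 and 65.0 CPM in cells with at least 1% ptgdsb.

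Among the genes with more RNA at 2 dpw were some that answer NF-kappaB and redox signals. The gene nfkbiaa, for an inhibitor of NF-kappaB that NF-kappaB itself switches on, had 1588 CPM at 2 dpw and 596 CPM in unwounded skin, a ratio of 2.67 (2.49 to 2.86). Its paralog nfkbiab had 715 CPM at 2 dpw and 242 CPM in unwounded skin, a ratio of 2.95 (2.66 to 3.29). Neither was above the unwounded level later, nfkbiaa with 405 and 500.3 CPM and nfkbiab with 197 and 240.1 CPM at 4 and 6 dpw. List A and list C cells showed smaller ratios at 2 dpw, 1.64 and 1.91 for nfkbiaa and 2.07 and 1.70 for nfkbiab, a difference that was not tested. The gene txnipa, for an inhibitor of thioredoxin, had 210.2 CPM at 2 dpw and 43.1 CPM in unwounded skin, and txn, thioredoxin, had 941 CPM at 2 dpw and 461 CPM in unwounded skin. The ratios were 4.87 (3.87 to 6.17) and 2.04 (1.88 to 2.22). Of all genes tested, 3.22% (86) were at least 2-fold higher at 2 dpw, 2.62% (63) at 4 dpw and 3.96% (121) at 6 dpw.

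Other increases lasted or came later. The gene sox11a, for a SOX factor of embryonic and progenitor cells, had 68.5, 208, 124 and 219 CPM in the unwounded, 2 dpw, 4 dpw and 6 dpw libraries, with ratios of 3.03, 1.80 and 3.20 at 2, 4 and 6 dpw. In cells thinned to 2000 UMIs, sox11a was found in 9.79, 17.6, 14.8 and 22.9% of ptgdsb-positive cells. The shares were 18.4, 17.3, 23.3 and 29.3% of list A cells and 2.97, 8.26, 13.3 and 10.4% of list C cells. The gene thbs1b, for a thrombospondin of the wound matrix, had 62.9, 156, 159 and 104 CPM, and was at least 2-fold higher at 2 and 4 dpw (2.48 and 2.53). A pair of TNF receptor family genes was highest at 6 dpw: tnfrsf9a had 113, 313, 385 and 514 CPM, with a ratio of 4.54 (3.98 to 5.2) at 6 dpw, and tnfrsf11b, the decoy receptor osteoprotegerin, had 214, 244, 376 and 659 CPM, with a ratio of 3.08 (2.78 to 3.41). In the unwounded, 2 dpw, 4 dpw and 6 dpw libraries 20.8, 35, 44.4 and 41.5% of ptgdsb-positive cells had a UMI of tnfrsf9a. So did 36.1, 37.0, 34.7 and 30.7% of the shallower T marker cells. Thinned to 2000 UMIs, the shares were 11.9, 20, 38.9 and 40% of ptgdsb-positive cells and 33.1, 34.8, 33.9 and 29.0% of T marker cells. In list C cells of that depth they were 21.0, 23.7, 29.3 and 37.1%. List A cells were lower at 2 and 4 dpw (15.7 and 17.3%) than in unwounded skin (23.5%) and higher at 6 dpw only. Whether T marker cells carry tnfrsf9a RNA of their own was not tested, nor was the part of free RNA. The immediate early gene fosab, which also responds to tissue dissociation, had 692, 758, 1366 and 1481 CPM and a ratio of 2.14 at 6 dpw.

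Most genes called higher rested on few cells, whereas most called lower were spread. Of the 86 genes at least 2-fold higher at 2 dpw, 22 had no cell with over 20% of their UMIs, 21 had 1 cell with over 50%, and 18 of the 22 also passed 2-fold in cells with at least 1% ptgdsb. At 4 dpw these counts were 7, 16 and 4 of 63 genes, and at 6 dpw 48, 15 and 42 of 121. Of the genes at least 2-fold lower, 78 of 108 at 2 dpw, 95 of 128 at 4 dpw and 77 of 109 at 6 dpw had no cell with over 20% of their UMIs in unwounded skin. The median top cell held 33.2, 36.6 and 24.7% of a gene's UMIs among higher genes and 9.09, 7.27 and 9.02% among lower genes at 2, 4 and 6 dpw. This limit was set after the data had been seen, and the unwounded library held the most cells. In cells with at least 1% ptgdsb alone, 69 genes were at least 2-fold higher and 75 at least 2-fold lower of 2230 tested at 2 dpw, 62 and 115 of 2037 at 4 dpw, and 126 and 89 of 2588 at 6 dpw.

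Stress and immune genes were called in both directions. Over all genes tested, 3.22, 2.62 and 3.96% were at least 2-fold higher and 4.04, 5.31 and 3.56% at least 2-fold lower at 2, 4 and 6 dpw. Of the heat and stress list 3 of 20, 1 of 18 and 1 of 20 genes were at least 2-fold higher at 2, 4 and 6 dpw and 4, 0 and 0 at least 2-fold lower. Among the lower ones at 2 dpw was the inducible heat shock gene hsp70.3, with 336 CPM at 2 dpw and 795 CPM in unwounded skin, though its ratio was 0.586 in cells with at least 1% ptgdsb. Of the inflammation list 4 of 25, 1 of 21 and 2 of 26 genes were higher and 1, 5 and 2 lower, and of the interferon and MHC list 3 of 23, 0 of 22 and 0 of 23 were higher and 1, 2 and 3 lower. The MHC class II gene mhc2dab, a mark of antigen-presenting cells, had 64.1, 22.1, 34 and 11.7 CPM in the unwounded, 2 dpw, 4 dpw and 6 dpw libraries. Of the immediate early list 0 of 29, 0 of 29 and 2 of 30 genes were higher and 1, 0 and 0 lower. In the desmosome (15 genes tested), gap junction (2) and glycogen (2, 0 and 3) lists no gene passed 2-fold at any time.

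**Figure D5:**
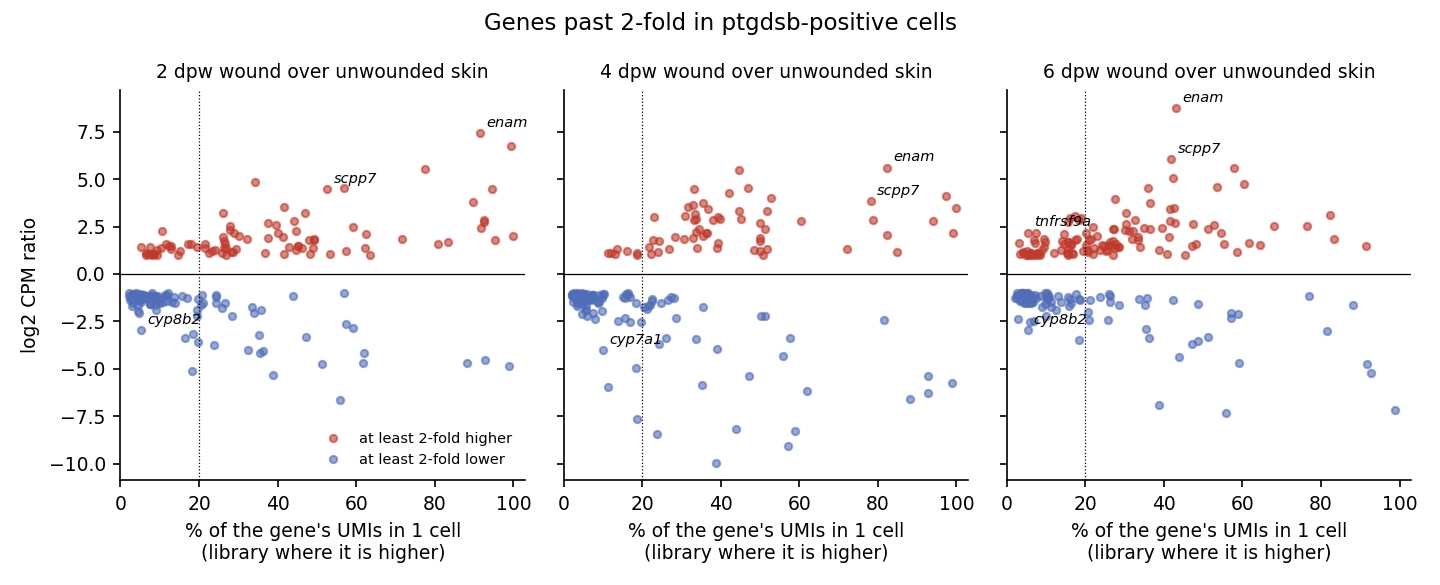
Log2 CPM ratio to unwounded skin of every gene at least 2-fold higher or lower in ptgdsb-positive cells, against the share of its UMIs (in %) held by 1 cell in the library where it is higher, for each wound library, with the dotted line at 20%. Lower genes crowd at the left, 78 of 108, 95 of 128 and 77 of 109 of them with no cell over 20%, while the largest ratios, such as enam, lie to the right.

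The largest ratios of all were of this few-cell kind. The gene enam, which encodes the enamel matrix protein enamelin, had 6.33, 1103, 309 and 2707 CPM in the unwounded, 2 dpw, 4 dpw and 6 dpw libraries, with 1 cell holding 91.4, 82.3 and 43.1% of its UMIs at 2, 4 and 6 dpw, and was found in 5.41, 8.25, 6.35 and 18.4% of ptgdsb-positive cells. The gene scpp7, for another secreted phosphoprotein of mineralized tissue, had 91.0, 2024, 1321 and 6029.5 CPM, with 1 cell holding 52.7, 78.2 and 41.9%, and was found in 11.2, 33.0, 17.5 and 32.7% of ptgdsb-positive cells. T marker cells had a UMI of scpp7 in 5.07, 8.40, 3.28 and 20.9% of cells and of enam in 3.33, 2.40, 1.21 and 10.4%. The gene col10a1a, for a collagen of mineralizing tissue, was higher in all ptgdsb-positive cells at 6 dpw (2789 CPM, and 329 CPM in unwounded skin) but lower in those with at least 1% ptgdsb (ratio 0.0342). The fibronectin gene fn1b had 26.5, 116, 586 and 156 CPM, with 1 cell holding 62.6, 33.1 and 52.7% in the wounds, and was lower at 2 dpw among cells with at least 4 genes of list B. The mural cell marker rgs5a had 29, 336, 465 and 143 CPM, and tagln, of smooth muscle, had 34.8, 125, 256 and 94.2 CPM. The fatty acid binding gene fabp11a had 60.9, 557, 431 and 317 CPM, against 255, 9965, 1657 and 1767 CPM in the cells without epcam and cdh1.

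Over all ptgdsb-positive cells, marker RNA of fibroblasts and endothelial cells was also higher in wounds, whereas that of macrophages was not. The 9 fibroblast markers summed to 1218, 2615, 8697 and 7337 CPM in ptgdsb-positive cells in the unwounded, 2 dpw, 4 dpw and 6 dpw libraries, against 6952, 4309, 39125 and 44643 CPM in cells without epcam and cdh1, with no marker at 0. At least 2 of them were found in 47, 27, 30 and 94 ptgdsb-positive cells. Endothelial markers, all 8 found, summed to 19.8, 107, 70.4 and 116 CPM, against 75.4, 228, 269 and 349 CPM in cells without epcam and cdh1. Macrophage markers summed to 1348, 1261, 1191 and 1049 CPM, against 6079, 10416, 3801 and 2828 CPM there, with csf1rb at 0 in 3 libraries. Of the wound matrix and migration list, which holds genes that fibroblasts also use, 6 of 21, 6 of 19 and 7 of 23 genes were at least 2-fold higher at 2, 4 and 6 dpw. Of all genes tested, 3.22, 2.62 and 3.96% were. At least 2 red blood cell markers were found in 81, 58, 40 and 124 ptgdsb-positive cells, and at least 2 macrophage markers in 64, 44, 17 and 60. Leaving out every cell with 2 or more markers of another cell type kept 95, 10, 8 and 30 ptgdsb-positive cells, and in these the direction turned round for zbtb16b, ccl25b, scpp7 and col10a1a at 4 dpw and for tm7sf2 at 2 dpw. The part of RNA from other cells in these values was not tested.

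Some genes outside the rule were higher in ptgdsb-positive cells than in the other groups. Against the other 4 groups pooled, 2.23% of 11278 genes were at least 2-fold higher in all 4 libraries (252) and 3.43% at least 2-fold lower (387). The largest smallest ratio was of si:dkey-91f15.1, with 122, 88.3, 105 and 88.9 CPM in the unwounded, 2 dpw, 4 dpw and 6 dpw libraries, against 5.2, 3.52, 1.87 and 2.99 CPM in the other groups pooled. Next came the phosphate transporter slc20a1a, with 78.0, 38.9, 46.0 and 54.8 CPM against 4.54, 3.28, 3.89 and 2.99 CPM, and the growth factor tgfb3, with 19.4, 18.5, 18.7 and 20.8 CPM against 1.61, 1.76, 1.79 and 1.79 CPM. The level of tgfb3 was not much above list A cells in unwounded skin, where these had 15.4 CPM. Nor was appa, the amyloid precursor protein, above list A cells in unwounded skin, with 637, 773, 696 and 802 CPM in ptgdsb-positive cells and 677, 486, 561 and 559 CPM in list A cells.

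Fewer genes were above both list A and list C cells. The lysosomal receptor scarb2a had 627, 323, 273 and 419 CPM in cells with at least 1% ptgdsb in the unwounded, 2 dpw, 4 dpw and 6 dpw libraries, against 131, 58.3, 53.3 and 88.7 CPM in list A cells and 179, 81.9, 71.4 and 139 CPM in list C cells. The gene cckb, which encodes a cholecystokinin peptide hormone, had 455, 317, 249 and 177 CPM, against 134, 104, 21.6 and 57.5 CPM in list A cells and 128, 117, 78.3 and 62.2 CPM in list C cells. Both were at least 2-fold higher than in either group in each library, and cckb was lower in each later library. The adrenomedullin gene admb, for a vasoactive peptide, had 162, 118, 91.4 and 217 CPM, against 32.1, 21.4, 18.7 and 49.6 CPM in list A cells and 20.4, 31.8, 18.6 and 41.1 CPM in list C cells, highest at 6 dpw. The gene ppp1r1c, for an inhibitor subunit of protein phosphatase 1, had 51.6, 38.6, 18.6 and 30 CPM, against 17.3, 1.90, 6.48 and 5.71 CPM in list A cells and 7.79, 2.48, 1.83 and 6.56 CPM in list C cells. Other members of the top 20 over the other groups, such as acta2, tnmd and tnn, are genes of smooth muscle and tendon cells found in few ptgdsb-positive cells, with acta2 in 1.54, 3.09, 6.35 and 2.76% of them.

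Across libraries, 120 of 36119 distinct barcodes occurred in more than 1 library, and 5 ptgdsb-positive cells had such a barcode. No doublet caller was applied. The median depth of ptgdsb-positive cells, given above, lay below that of list C cells (13837.5, 13352, 12825 and 12338 UMIs in the unwounded, 2 dpw, 4 dpw and 6 dpw libraries) in each library and below that of list A cells (9959, 14548.5, 7108 and 8649 UMIs) in all but the 4 dpw library. The rule was also met by 40, 7, 4 and 24 cells without epcam and cdh1, which were left out, as were 29, 23, 12 and 27 cells outside the limits on depth.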

How the data were processed

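Single-cell RNA was measured with 10x Genomics 3′ chemistry in 4 libraries. The authors mapped reads with Cell Ranger 6.1.2 and deposited, for each called cell and 25432 genes, the count of UMIs with no normalization; GRCz11 and Seurat 4.3.0 are named in the submitters' processing notes. Of these genes, 1244 share a symbol with another and were kept apart by Ensembl ID. Cells with 500 to 30000 UMIs, 200 to 4500 genes and below 25% mitochondrial UMIs were kept, as in the authors' limits (5802, 7754, 7315 and 8314 in the unwounded, 2 dpw, 4 dpw and 6 dpw libraries), and no doublet caller was applied.

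Counts of the chosen cells were summed per library (2527240, 1132522, 696342 and 1878755 UMIs) and scaled to CPM. Ratios have exact conditional 95% intervals, summed levels exact Poisson intervals and shares Clopper-Pearson intervals. A library with 0 UMIs of a gene was given a floor of 3 UMIs. Genes with at least 100 UMIs in both libraries together were compared, less the 25 rule genes, and called at 2-fold or more, or 0.5 or less. Groups of the same rule were compared within each library, for genes with at least 100 UMIs in either group over all 4 libraries. Because each condition is 1 library, no p-value is given. The calculations were tested on simulated data. Members and lists were chosen with earlier results of these data known. Genes are named from the rule, from the lists, from the 10 largest and 10 smallest ratios per wound library among genes not higher in cells without epcam and cdh1, and from the 20 with the largest smallest ratio over the other keratinocyte groups; nfkbiaa, txn, scarb2a, cckb, admb and other single genes were added after their values were seen. Alternatives changed the rule, the limits, the scaling (edgeR TMM), the gene minimum and the cells. Python 3.11.15, numpy 2.4.6, scipy 1.17.1, pandas 2.3.3, matplotlib 3.10.9, R 4.3.3 and edgeR 4.0.16 were used.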

Additional observations from a re-analysis of the deposited data

How the results depend on the processing

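Every alternative gave a ratio of shares below 1 in each wound library, but at 6 dpw the interval held 1 without ptgdsb.1 in list B (0.784, 0.584 to 1.05) and with the cells that carry RNA of other cell types left out (0.722, 0.462 to 1.1). With at least 2 genes of list B the ratios of shares were 0.271, 0.174 and 0.488 at 2, 4 and 6 dpw, and with at least 4 genes 0.517 and 0.443 at 2 and 4 dpw. When 1 gene of list B was left out in turn, the minimum was also lowered, to 2 of the 4 genes left. The ratios then were 0.297 and 0.244 at 2 and 4 dpw (ptgdsb.1), 0.232 at 4 dpw (ptgdsb.2), and at 2, 4 and 6 dpw 0.243, 0.152 and 0.479 (srd5a2b), 0.243, 0.140 and 0.472 (cx44.2) and 0.229, 0.124 and 0.436 (gyg1b). Without srd5a2b, cx44.2 or gyg1b, 743, 744 and 699 unwounded cells passed, against 259 in the main setting. These ratios thus do not show the part of the gene left out alone. Thinning gave 0.515 at 2 dpw, and of all kept cells the ratios were 0.280, 0.193 and 0.585.

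Counts of genes past 2-fold depended on the gene minimum and the cells. Given as higher and lower at 2, 4 and 6 dpw, they were 412 and 635, 337 and 719, and 468 and 588 with at least 20 UMIs, 1072 and 1467, 1462 and 1253, and 1333 and 1469 with no minimum, and 240 and 340, 98 and 571, and 207 and 477 with at least 2 genes of list B. With at least 4 genes of list B, 49 were higher at 2 dpw. Limited to genes with no cell over 20%, chosen after seeing the data, 22, 7 and 48 were higher. At 4 dpw 228 genes were lower by the mean CPM per cell and 207 without the cell with the most UMIs. Leaving out cells with 2 or more markers of another cell type kept only 95, 10, 8 and 30 cells in the unwounded, 2 dpw, 4 dpw and 6 dpw libraries, with 29 higher and 60 lower at 2 dpw, 13 higher at 4 dpw, and 34 higher and 50 lower at 6 dpw. Over the other keratinocyte groups the counts were 131 higher and 597 lower against the equal mean of the 4 groups, 73 and 111 with those cells left out, 126 and 84 against list A cells, and 490 higher against list C cells.

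Of the ratios of named genes, those that turned round did so mostly in the 10, 8 and 30 wound cells left by that last filter: zbtb16b 1.46, deptor 1.53, ccl25b 1.01, scpp7 0.0643, gch2 5.46 and col10a1a 19.1 at 4 dpw, tm7sf2 1.18, gch2 4.1 and id2b 1.15 at 2 dpw, and rasl11b 0.811, id2b 3.89 and fn1a 0.922 at 6 dpw. The others were gch2 (2.03 at 4 dpw with at least 2 genes of list B, 2.26 and 3.13 at 2 and 4 dpw with at least 4), fn1b (0.551 at 2 dpw with at least 4), col10a1a (0.0295 with at least 4 genes and 0.0342 with at least 1% ptgdsb, at 6 dpw) and cyp26a1 (0.921 at 6 dpw by the mean CPM per cell). The cause was not tested. The 63 cells at 4 dpw held the fewest UMIs (696342), which limits the precision of every 4 dpw ratio. No paired analysis was possible because the labels carry no replicate numbers and each condition is 1 library.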
